A study of Mus musculus with 9 samples.

Results

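The genes described here are 10 inflammatory signalling genes of the mouse liver. These are the chemokines Cxcl1, Cxcl9, Cxcl10, Ccl2, Ccl5 and Ccl6, the cytokines Tnf and Il1b, and the adhesion molecules Icam1 and Vcam1. They were taken by symbol, and all 10 were found among the 45513 Ensembl gene IDs of the count table. Liver RNA came from C57BL/6 mice in 3 groups of 3: high fat diet with B-LGND2, high fat diet with vehicle, and normal diet with vehicle, each kept for 9 weeks. B-LGND2 is known here only by that code name, and the series title presents it as a ligand of estrogen receptor beta, a hormone-activated transcription factor. The high fat groups shared the diet and differed in the agent, and the vehicle groups shared the vehicle and differed in the diet. The high fat B-LGND2 and normal diet vehicle groups differed in both. The sources used here give no dose, diet composition, vehicle, age or sex, and do not say whether a library is 1 mouse or a pool.

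Chemokines are small secreted proteins that direct leukocytes along a gradient through receptors on the cell surface. Tumour necrosis factor and interleukin 1 beta act on receptors that activate the transcription factor NF-kB, which in turn raises transcription of many chemokines and of Icam1 and Vcam1. In the liver, Kupffer cells, the resident macrophages, are a main source of both cytokines. Icam1 and Vcam1 on the sinusoidal endothelium hold leukocytes through integrins, which is the step that lets them leave the blood.

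Promoters of 4 of the genes are shown because Cxcl1, Ccl6 and Icam1 are the members whose level passed the test under B-LGND2, and because Cxcl10 carries the most matches to the motifs of this family. Each sequence is the 250 bases before the RefSeq start site on GRCm38.p6, 5′ to 3′ on the strand of the gene, and capitals mark matches to the NF-kB motif. The windows lie at chr5:90890995-90891244 on the plus strand for Cxcl1, chr5:92348890-92349139 on the minus strand for Cxcl10, chr9:21015690-21015939 on the plus strand for Icam1 and chr11:83593088-83593337 on the minus strand for Ccl6.
Cxcl1: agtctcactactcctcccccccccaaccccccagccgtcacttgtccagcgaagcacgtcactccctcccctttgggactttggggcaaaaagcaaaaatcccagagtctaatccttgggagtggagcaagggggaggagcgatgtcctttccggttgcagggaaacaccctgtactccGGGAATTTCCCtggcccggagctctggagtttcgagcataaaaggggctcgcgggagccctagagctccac
Cxcl10: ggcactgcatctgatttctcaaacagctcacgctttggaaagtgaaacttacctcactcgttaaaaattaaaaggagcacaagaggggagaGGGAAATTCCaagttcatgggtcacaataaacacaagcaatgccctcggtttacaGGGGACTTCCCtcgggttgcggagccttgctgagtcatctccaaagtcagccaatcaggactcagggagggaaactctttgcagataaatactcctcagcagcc
Icam1: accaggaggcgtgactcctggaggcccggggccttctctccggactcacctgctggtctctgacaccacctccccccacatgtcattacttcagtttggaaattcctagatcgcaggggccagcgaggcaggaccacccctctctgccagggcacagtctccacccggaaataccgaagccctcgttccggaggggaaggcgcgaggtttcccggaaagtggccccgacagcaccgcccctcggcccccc
Ccl6: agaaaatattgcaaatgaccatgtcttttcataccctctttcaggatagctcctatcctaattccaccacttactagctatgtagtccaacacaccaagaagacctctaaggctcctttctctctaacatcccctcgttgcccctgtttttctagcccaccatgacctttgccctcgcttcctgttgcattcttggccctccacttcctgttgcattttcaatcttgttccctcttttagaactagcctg

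Of the 10 genes, 7 had an entry with a promoter in the RefSeq table, and Ccl2, Ccl5 and Vcam1 had none. The 5 motifs searched on both strands were NF-kB, ISRE (GAAANNGAAA), GAS (TTCNNNGAA), AP-1 (TGANTCA) and the TATA box (TATAAA). Cxcl1 held 2 overlapping NF-kB matches, which form 1 stretch from -71 to -61, counted from the start site. Cxcl10 held 3 NF-kB matches, 1 from -159 to -150 and an overlapping pair from -104 to -94, besides 1 ISRE match from -213 to -204 and 1 AP-1 match from -74 to -68. Icam1 held 1 GAS match, from -42 to -34, and Ccl6 held none of the 5 motifs. The NF-kB pattern searched was strict and begins with GGG. The stretch tggaaattcc in the Icam1 window misses it by 1 letter and was not counted. Cxcl9, Tnf and Il1b each held 1 TATA box match and no other, from -195 to -190, from -29 to -24 and from -31 to -26. Among 32851 promoter windows of the same length, 7.25% held an NF-kB match, 2.98% an ISRE match, 7.02% a GAS match, 6.75% an AP-1 match and 12.4% a TATA box match, on either strand. A match is a stretch of letters and was not measured as a binding site.

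Library totals ran from 5778978 to 10322972 counts, both in the high fat B-LGND2 group, so that 1 count was worth 0.116 to 0.167 CPM, the counts scaled to 1e6 per library, with library sizes adjusted by the trimmed mean of M-values. A total of 12102 genes passed a filter of 1.555 CPM, before that adjustment, in at least 3 libraries and were tested. The hepatocyte markers were all detected, at a summed 87130 to 127600 CPM in the high fat B-LGND2 libraries, 86430 to 97030 CPM in the high fat vehicle libraries and 86750 to 97120 CPM in the normal diet libraries. Some measures of the libraries moved with the groups. Genes of ribosomal RNA held 4.31% to 6.19% of counts in the high fat B-LGND2 libraries, 0.901% to 1.44% in the high fat vehicle libraries and 3.16% to 3.75% in the normal diet libraries. Over genes, the Spearman correlation of GC content with the deviation of log2 CPM from the mean of the gene was 0.045 to 0.50 in the high fat B-LGND2 libraries, -0.098 to -0.027 in the high fat vehicle libraries and -0.25 to -0.15 in the normal diet libraries. In the high fat vehicle libraries the same correlation for transcript length was 0.30 to 0.36, above that of every other library. The part of these measures in the differences given here was not tested, beyond alternatives with an offset for length and GC content and without ribosomal RNA and mitochondrial genes. Replicate 1 of high fat B-LGND2 held the highest GC correlation. Replicate 1 of the normal diet stood apart with 12.7% mitochondrial counts, against 3.69% to 6.12% in the other libraries.

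With B-LGND2 on the high fat diet, 3 of the 7 tested members passed the test against the high fat vehicle group: Icam1 and Ccl6 were higher and Cxcl1 was lower. Calls came from the quasi-likelihood test of edgeR, with p-values adjusted by the method of Benjamini and Hochberg over all tested genes and a threshold of 0.05. By this rule 5.63% of all genes were called in this comparison, 3.07% higher and 2.56% lower. Against normal diet vehicle, the high fat B-LGND2 group had 1 member called, Vcam1, which was higher. There 2.93% of all genes were called, 1.59% higher and 1.33% lower. In the high fat vehicle group against normal diet vehicle, no member was called by edgeR, 1 of the 7 had an unadjusted p under 0.05, and DESeq2 called 1, in each case Cxcl1. In that comparison edgeR called 2.99% of all genes, 1.5% higher and 1.49% lower. The median log2 fold change of the 7 genes was 0.84 for high fat B-LGND2 against high fat vehicle, beside -0.0031 for all tested genes. It was 0.84 for high fat B-LGND2 against normal diet vehicle, beside -0.0058, and 0.28 for high fat vehicle against normal diet vehicle, beside 0.0054. The 3 comparisons share their groups in pairs and are not independent. Each p-value covers only the spread among libraries within groups, which was estimated over all 3 groups at once. In whole liver RNA fewer cells of a type and less RNA per cell cannot be told apart.

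**Figure D1:**
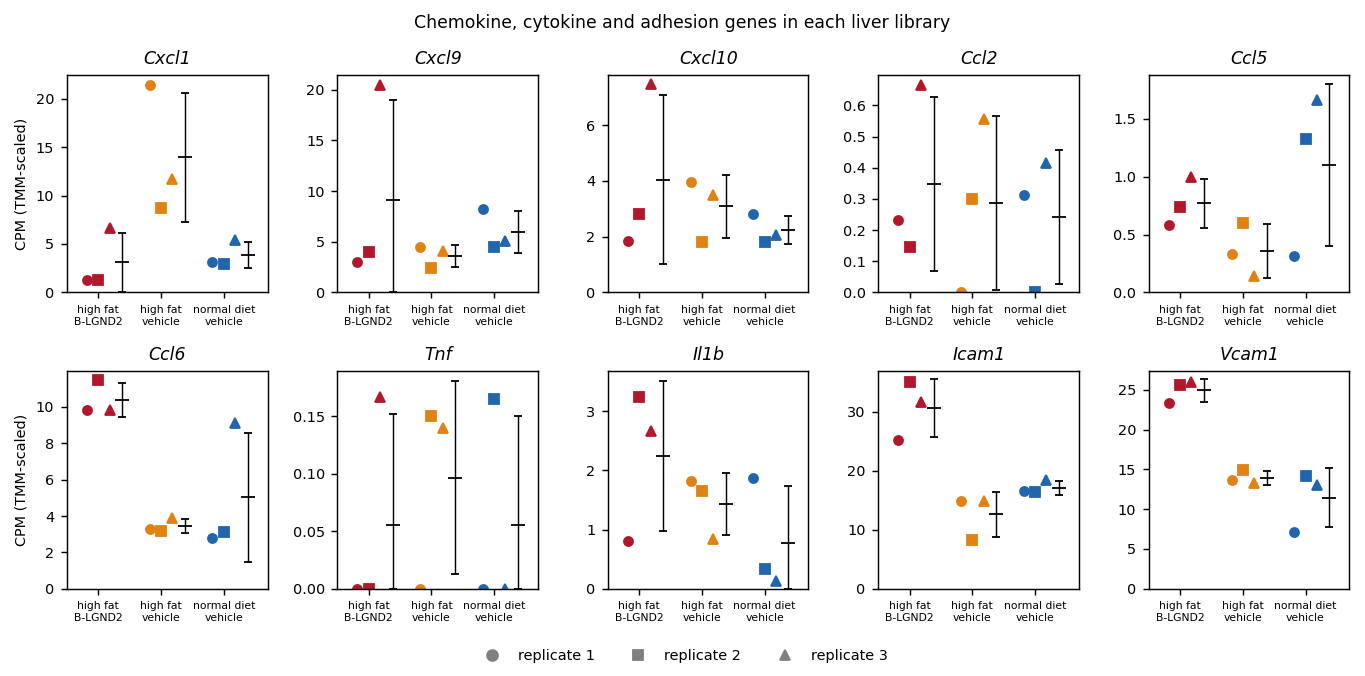
Level of each of the 10 genes in CPM (TMM-scaled, linear axis from 0) in the 9 liver libraries, 1 panel per gene with its own axis; points are libraries, the horizontal mark is the mean and the bar is ± SD of 3 libraries, ending at 0 where it would go below. Icam1, Vcam1 and Ccl6 had all 3 high fat B-LGND2 libraries above the high fat vehicle libraries, Cxcl1 had all 3 below them, and replicate 3 of high fat B-LGND2 stood far above the other libraries for Cxcl9.

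Cxcl1 (ENSMUSG00000029380, chr5:90891241-90893115, plus strand) encodes a chemokine that attracts neutrophils through the receptor Cxcr2. It had 11, 9 and 40 counts in the high fat B-LGND2 libraries, 130, 58 and 84 counts in the high fat vehicle libraries and 20, 18 and 39 counts in the normal diet libraries. All 3 high fat vehicle libraries lay above all libraries of both other groups, which overlapped each other. Its level averaged 3.09 ± 3.10 CPM with high fat B-LGND2, 13.96 ± 6.65 CPM with high fat vehicle and 3.83 ± 1.36 CPM on the normal diet (SD, n = 3 each). In the high fat B-LGND2 group it fell by 2.22 on the log2 scale against high fat vehicle (SE 0.54, 95% interval -3.37 to -1.07, edgeR quasi-likelihood adjusted p = 0.0295, lower in 3 of 3 libraries). High fat vehicle against normal diet stood at 1.85 (SE 0.53, edgeR adjusted p = 0.0668), which did not pass, and high fat B-LGND2 against normal diet stood at -0.37 (SE 0.57, edgeR adjusted p = 0.768).

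The Cxcl1 call rested on the full set of libraries. Without replicate 1, 2 or 3 of high fat vehicle the log2 fold change of B-LGND2 was -1.77, -2.46 and -2.33, with edgeR adjusted p = 0.122, 0.0528 and 0.0605. Without replicate 1 or 2 of high fat B-LGND2 it was -1.79 and -1.84, with edgeR adjusted p = 0.142 and 0.0717. Replicate 3 of high fat B-LGND2 held most of the Cxcl1 counts of its group, and without it the log2 fold change was -3.41 and the edgeR adjusted p = 0.00566. The difference of high fat vehicle from normal diet passed with DESeq2 (adjusted p = 0.0116), with no filter on low counts (edgeR adjusted p = 6.99e-05), with an offset for transcript length and GC content (edgeR adjusted p = 0.0458) and without replicate 3 of high fat B-LGND2 (edgeR adjusted p = 0.0307).

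Cxcl9 and Cxcl10 are interferon gamma-induced chemokines that attract T and NK cells through the receptor Cxcr3. Cxcl9 (ENSMUSG00000029417) lies at chr5:92321347-92328079 on the minus strand. It had 26, 27 and 123 counts in the high fat B-LGND2 libraries, 27, 16 and 29 in the high fat vehicle libraries and 53, 27 and 37 in the normal diet libraries. Replicate 3 of high fat B-LGND2 was far above the other 8 libraries, and the other 2 of its group lay within the range of the high fat vehicle libraries. The group means were 9.16 ± 9.82 CPM with high fat B-LGND2, 3.63 ± 1.08 CPM with high fat vehicle and 5.95 ± 2.03 CPM on the normal diet (SD, n = 3 each). The log2 fold change of high fat B-LGND2 over high fat vehicle was 1.31 (SE 0.60, edgeR adjusted p = 0.204) and turned to -0.062 without that library. High fat B-LGND2 over normal diet stood at 0.60 (SE 0.58, edgeR adjusted p = 0.615) and turned to -0.77. With no filter on low counts the ligand difference passed (edgeR adjusted p = 0.0178). All 3 high fat vehicle libraries lay below the normal diet libraries in CPM, at a log2 fold change of -0.71 that did not pass (SE 0.61, edgeR adjusted p = 0.521).

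Cxcl10 (ENSMUSG00000034855) lies at chr5:92346638-92348889 on the minus strand. It had 16, 19 and 45 counts in the high fat B-LGND2 libraries, 24, 12 and 25 in the high fat vehicle libraries and 18, 11 and 15 in the normal diet libraries. Replicate 3 of high fat B-LGND2 was again the highest, and every pair of groups overlapped. Cxcl10 averaged 4.05 ± 3.02 CPM with high fat B-LGND2, 3.08 ± 1.13 CPM with high fat vehicle and 2.23 ± 0.513 CPM on the normal diet (SD, n = 3 each). Its log2 fold change of high fat B-LGND2 over high fat vehicle was 0.37 (SE 0.50, edgeR adjusted p = 0.694) and turned to -0.41 without that library. High fat B-LGND2 against normal diet stood at 0.82 (SE 0.51, edgeR adjusted p = 0.393) and high fat vehicle against normal diet at 0.46 (SE 0.52, edgeR adjusted p = 0.635). The whole of Cxcl10 lies inside Art3, a gene on the opposite strand that had 86 counts in all libraries, and the strand setting of the counting is not given here, so reads of both cannot be told apart. Ccl2, Ccl6, Vcam1 and Il1b overlap other annotated genes that had 0 or 1 counts. The end of Icam1 overlaps the antisense gene Gm47079, for which no count was available here.

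Ccl6 (ENSMUSG00000018927, chr11:83587882-83593087, minus strand) encodes a CC chemokine of rodents made by myeloid cells. It had 85, 78 and 59 counts in the high fat B-LGND2 libraries, 20, 21 and 28 in the high fat vehicle libraries and 18, 19 and 66 in the normal diet libraries. All high fat B-LGND2 libraries lay above all others in CPM, and replicate 3 of the normal diet lay close to them. The means were 10.4 ± 0.947 CPM with high fat B-LGND2, 3.45 ± 0.396 CPM with high fat vehicle and 5.03 ± 3.56 CPM on the normal diet (SD, n = 3 each). Ccl6 rose 2.99-fold in the high fat B-LGND2 group against high fat vehicle (log2 1.58, SE 0.40, 95% interval 0.73 to 2.43, edgeR quasi-likelihood adjusted p = 0.0336, higher in 3 of 3 libraries). The log2 fold change stayed between 1.41 and 1.68 over all 20 alternatives.

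The Ccl6 call was lost when any 1 of the 6 libraries compared was left out. The edgeR adjusted p was 0.115, 0.138 and 0.0895 without replicate 1, 2 or 3 of high fat vehicle, and 0.101, 0.0610 and 0.0610 without replicate 1, 2 or 3 of high fat B-LGND2. Against normal diet, Ccl6 stood at 1.03 with high fat B-LGND2 (SE 0.39, edgeR adjusted p = 0.161) and at -0.55 with high fat vehicle (SE 0.41, edgeR adjusted p = 0.454). Both values turned on replicate 3 of the normal diet: without it they were 1.80 (edgeR adjusted p = 0.0135) and 0.22 (edgeR adjusted p = 0.865). An offset for transcript length and GC content gave 1.44 for high fat B-LGND2 against normal diet (edgeR adjusted p = 0.0245).

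Ccl2, Ccl5 and Tnf had too few counts for the main test, since no library reached the filter. Ccl2 (ENSMUSG00000035385, chr11:82035571-82037453, plus strand) encodes the monocyte chemokine that acts on Ccr2. It had 2, 1 and 4 counts in the high fat B-LGND2 libraries, 0, 2 and 4 in the high fat vehicle libraries and 2, 0 and 3 in the normal diet libraries. Ccl5 (ENSMUSG00000035042, chr11:83525778-83530518, minus strand) encodes a chemokine that T cells make and respond to. It had 5, 5 and 6 counts in the high fat B-LGND2 libraries, 2, 4 and 1 in the high fat vehicle libraries and 2, 8 and 12 in the normal diet libraries. Tnf (ENSMUSG00000024401, chr17:35199381-35202007, minus strand) encodes tumour necrosis factor. It had 0, 0 and 1 counts in the high fat B-LGND2 libraries, 0, 1 and 1 in the high fat vehicle libraries and 0, 1 and 0 in the normal diet libraries. With no filter on low counts they were tested by edgeR, and none was called in any of the 3 comparisons. The adjusted p nearest the threshold was 0.419, for Ccl5 in high fat vehicle against normal diet (log2 fold change -1.59, SE 0.91). A difference between groups was not detectable for these 3 genes at this depth. A count of 0 allows up to 3 counts, which is 0.348 to 0.500 CPM in these libraries, and such limits cover counting error only.

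Il1b (ENSMUSG00000027398, chr2:129364570-129371139, minus strand) encodes a cytokine made as a precursor by activated macrophages and monocytes. It was near the filter, with 7, 22 and 16 counts in the high fat B-LGND2 libraries, 11, 11 and 6 in the high fat vehicle libraries and 12, 2 and 1 in the normal diet libraries. Replicate 1 of the normal diet, the library with the high mitochondrial share, held most of the counts of its group, and all groups overlapped. Il1b passed the filter through 2 high fat B-LGND2 libraries, 2 high fat vehicle libraries and 1 normal diet library. Its level averaged 2.24 ± 1.27 CPM with high fat B-LGND2, 1.44 ± 0.525 CPM with high fat vehicle and 0.780 ± 0.950 CPM on the normal diet (SD, n = 3 each). Its log2 fold changes were 0.62 for high fat B-LGND2 against high fat vehicle (SE 0.69, edgeR adjusted p = 0.617) and 1.49 for high fat B-LGND2 against normal diet (SE 0.75, edgeR adjusted p = 0.285). It was 0.87 for high fat vehicle against normal diet (SE 0.78, edgeR adjusted p = 0.536). Without replicate 1 of the normal diet, the values against normal diet were 3.17 for high fat B-LGND2 (edgeR adjusted p = 0.0512) and 2.55 for high fat vehicle (edgeR adjusted p = 0.0753).

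Icam1 (ENSMUSG00000037405, chr9:21015985-21028817, plus strand) encodes the ligand of the beta 2 integrins. It was the member with the most counts, with 218, 238 and 190 in the high fat B-LGND2 libraries, 90, 55 and 107 in the high fat vehicle libraries and 106, 99 and 133 in the normal diet libraries. In CPM all high fat B-LGND2 libraries were above all others, and all high fat vehicle libraries were below all normal diet libraries. Icam1 averaged 30.6 ± 4.96 CPM with high fat B-LGND2, 12.7 ± 3.82 CPM with high fat vehicle and 17.1 ± 1.13 CPM on the normal diet (SD, n = 3 each). It rose 2.41-fold in the high fat B-LGND2 group against high fat vehicle (log2 1.27, SE 0.26, 95% interval 0.72 to 1.83, edgeR quasi-likelihood adjusted p = 0.0143, higher in 3 of 3 libraries). Of 20 alternatives, 19 kept this call, and without replicate 2 of high fat vehicle, the lowest library, the log2 fold change was 1.04 and the edgeR adjusted p = 0.0975. High fat B-LGND2 against normal diet stood at 0.84 (SE 0.26, edgeR adjusted p = 0.0909) and high fat vehicle against normal diet at -0.43 (SE 0.26, edgeR adjusted p = 0.350), neither of which passed.

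Vcam1 (ENSMUSG00000027962, chr3:116109949-116129688, minus strand) encodes the ligand of the integrin of Itga4 and Itgb1. It had 201, 174 and 156 counts in the high fat B-LGND2 libraries, 83, 99 and 95 in the high fat vehicle libraries and 46, 86 and 94 in the normal diet libraries. The high fat B-LGND2 libraries lay above all others, and the groups on vehicle overlapped. Vcam1 averaged 24.96 ± 1.46 CPM with high fat B-LGND2, 13.9 ± 0.852 CPM with high fat vehicle and 11.5 ± 3.77 CPM on the normal diet (SD, n = 3 each). It rose 2.17-fold in the high fat B-LGND2 group against normal diet (log2 1.12, SE 0.26, 95% interval 0.56 to 1.68, edgeR quasi-likelihood adjusted p = 0.0309, higher in 3 of 3 libraries). Against high fat vehicle the log2 fold change was 0.84 (SE 0.26, 95% interval 0.29 to 1.39, edgeR adjusted p = 0.0677), which did not pass, and high fat vehicle against normal diet stood at 0.28 (SE 0.27, edgeR adjusted p = 0.561).

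Both Vcam1 values lay near the threshold. The rise against normal diet kept its call in 11 of 20 alternatives. The edgeR adjusted p was 0.0606 without replicate 2 of the normal diet. It was 0.0546, 0.0537 and 0.0530 without replicate 1, 2 or 3 of high fat vehicle, and 0.0760, 0.0723 and 0.0683 without replicate 1, 2 or 3 of high fat B-LGND2. It was 0.0515 with no scaling beyond library size and 0.0911 with only the 2 groups in the model. The difference from high fat vehicle passed in 5 alternatives. These were DESeq2 (adjusted p = 0.0370), a model with only the 2 groups in the model (edgeR adjusted p = 0.0177), the offset for length and GC content (edgeR adjusted p = 0.0132), and leaving out replicate 1 (edgeR adjusted p = 0.0248) or replicate 3 (edgeR adjusted p = 0.0362) of the normal diet.

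**Figure D2:**
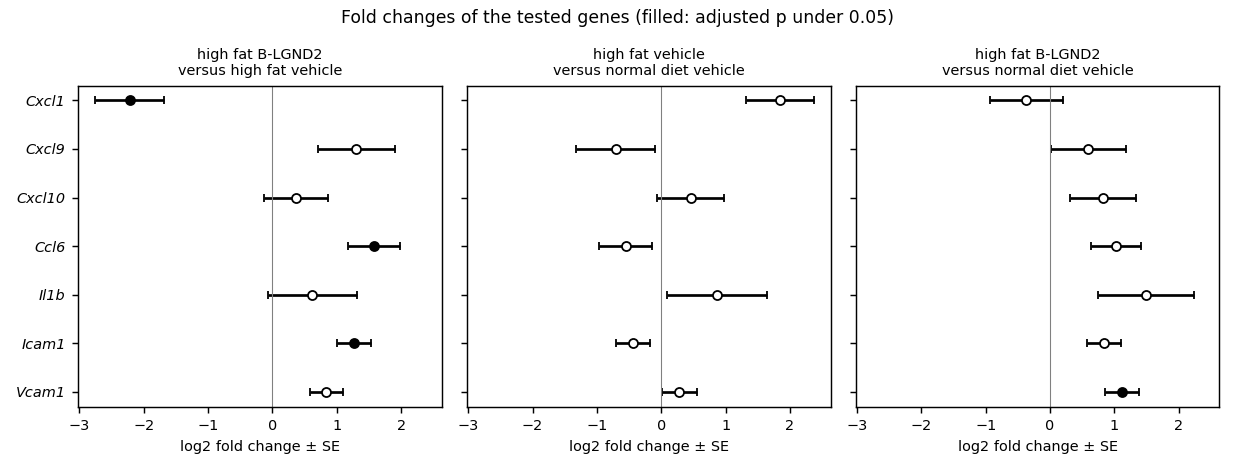
Log2 fold change ± SE (horizontal axis, edgeR quasi-likelihood model over all 9 libraries) of the 7 tested genes in the 3 comparisons; filled points have an adjusted p under 0.05. With high fat B-LGND2 against high fat vehicle, Cxcl1 stood at -2.22, Ccl6 at 1.58 and Icam1 at 1.27, and Vcam1 was filled in the comparison of high fat B-LGND2 with normal diet, at 1.12.

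Counted by libraries alone, 3 of the 7 tested genes (Ccl6, Icam1 and Vcam1) had all high fat B-LGND2 libraries above all high fat vehicle libraries and 1, Cxcl1, had all below, where 33.6% of all tested genes showed no overlap. The same 3 genes had all high fat B-LGND2 libraries above the normal diet libraries, where 20.5% of all genes showed no overlap. Between high fat vehicle and normal diet, Cxcl1 had all high fat vehicle libraries above and Cxcl9 and Icam1 had all below, where 30.1% of all genes showed no overlap. An unadjusted p under 0.05 was reached by 5 of 7 members for high fat B-LGND2 against high fat vehicle, 3 of 7 for high fat B-LGND2 against normal diet and 1 of 7 for high fat vehicle against normal diet, against 23.7%, 19.4% and 22.4% of all genes.

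Levels of different genes can be set side by side only per length, here as CPM per kilobase of all annotated exons of the gene. The order given holds for this length only. Summed exons and longest transcript are 4360 and 2535 bases for Icam1, 8870 and 4088 for Vcam1 and 1875 and 1871 for Cxcl1. By longest transcript, Icam1 and Vcam1 would stand higher relative to Cxcl1, and the high fat vehicle libraries of Icam1 and Cxcl1 would overlap. With high fat B-LGND2, Icam1 led at 7.03 ± 1.14 CPM per kilobase and Ccl6 followed at 5.79 ± 0.528, with libraries that overlapped. Cxcl9 came next at 3.04 ± 3.26, set by replicate 3, and Vcam1 stood at 2.81 ± 0.164 (SD, n = 3 each). With high fat vehicle, Cxcl1 led at 7.44 ± 3.55 CPM per kilobase, and its lowest library, at 4.65, was above every library of the next gene, Icam1, at 2.91 ± 0.875. On the normal diet, Icam1 led at 3.92 ± 0.258 CPM per kilobase, followed by Ccl6 at 2.80 ± 1.98, whose libraries overlapped with those of Icam1. Over all 9 libraries the order of mean levels was Icam1 (4.62 CPM per kilobase), Cxcl1 (3.71), Ccl6 (3.50), Cxcl9 (2.07), Vcam1 (1.89), Cxcl10 (1.39), Il1b (0.778), Ccl5 (0.773), Ccl2 (0.257) and Tnf (0.0422).

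The members varied in different ways over the libraries, as measured by the root-mean-square difference of their z scores of log2 CPM over the 9 libraries, where 0 is the same pattern. Ccl6 and Icam1 were the closest pair at 0.573, then Cxcl9 and Cxcl10 at 0.599 and Ccl6 and Vcam1 at 0.644. The pairs with Ccl6 had their high values in the high fat B-LGND2 libraries, and Cxcl9 and Cxcl10 shared their high value in 1 library, replicate 3 of high fat B-LGND2. Cxcl1 and Icam1 were the furthest pair at 1.67.

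**Figure D3:**
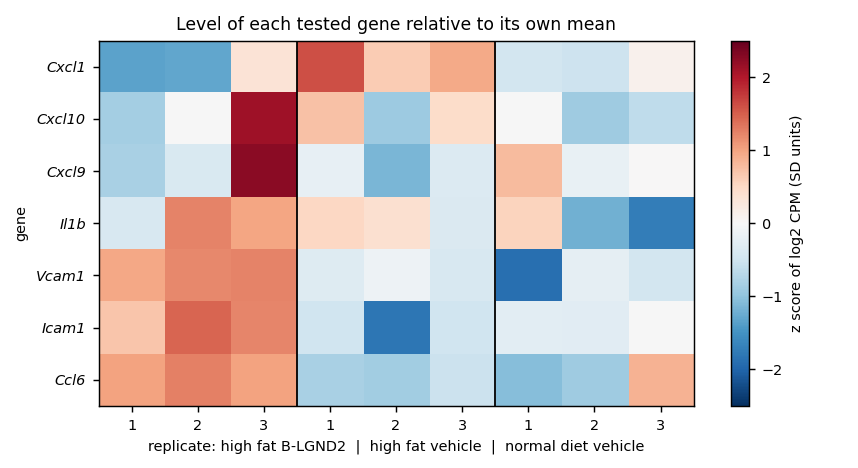
Heat map of the z score of log2 CPM (colour, in SD units around the mean of the gene) for the 7 tested genes (rows) in the 9 libraries (columns, grouped as high fat B-LGND2, high fat vehicle and normal diet vehicle). Vcam1, Icam1 and Ccl6 were high in all 3 high fat B-LGND2 libraries, Cxcl9 and Cxcl10 in replicate 3 of that group, and Cxcl1 in the high fat vehicle libraries.

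On the same measure, the protein-coding genes most like Icam1 included Clec4a1 at 0.262 and B4galt4 at 0.323, and the median over all other genes was 1.36. Closest to Ccl6 were Ap2a2 at 0.211, Cyba at 0.244 and Wars at 0.246. Vcam1 was closest to Gosr2 at 0.272, Med22 at 0.283 and Snx12 at 0.284. For Cxcl1 these were Ell2 at 0.301, Zmym6 at 0.357 and Slc17a3 at 0.398. Cxcl9 was closest to Zfp280d at 0.273, the matrix proteoglycan gene Dcn at 0.335 and Crygn at 0.407, and Cxcl10 to Armc8 at 0.453, Kit at 0.457 and Themis2 at 0.459. These values describe 9 shared libraries and carry no test.

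Among 31 other chemokines, 7 were tested, and high fat B-LGND2 against high fat vehicle called 2 higher and none lower, with a list median of 0.66. Cxcl14, a chemokine of epithelial and stromal tissue, had 54, 62 and 54 counts in the high fat B-LGND2 libraries, 7, 13 and 13 in the high fat vehicle libraries and 11, 8 and 11 in the normal diet libraries. It rose in the high fat B-LGND2 group by 2.28 on the log2 scale against high fat vehicle (edgeR adjusted p = 0.00445) and by 2.40 against normal diet (edgeR adjusted p = 0.00347), and both calls held in 20 of 20 alternatives. Cxcl16, the ligand of Cxcr6, had 112, 71 and 65 counts in the high fat B-LGND2 libraries, 17, 15 and 28 in the high fat vehicle libraries and 21, 37 and 72 in the normal diet libraries. It rose by 1.93 in high fat B-LGND2 against high fat vehicle (edgeR adjusted p = 0.0131). Of 20 alternatives 17 kept this call, which was lost without replicate 1 or 2 of high fat vehicle or replicate 1 of high fat B-LGND2. Cxcl12, the ligand of Cxcr4, had the most CPM of the list. It averaged 382 ± 14.7 CPM with high fat B-LGND2, 241 ± 17.6 CPM with high fat vehicle and 288 ± 24.1 CPM on the normal diet (SD, n = 3 each) and was not called (edgeR adjusted p = 0.0522 for high fat B-LGND2 against high fat vehicle).

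Ccl9, a rodent chemokine of myeloid cells like Ccl6, was the 1 other chemokine called in the high fat vehicle group against normal diet, where the list median was -0.26. It had 272, 205 and 193 counts in the high fat B-LGND2 libraries, 161, 110 and 144 in the high fat vehicle libraries and 348, 450 and 1045 in the normal diet libraries. All normal diet libraries were above the rest, with replicate 3 of the normal diet the highest. Ccl9 fell by 2.12 on the log2 scale in high fat vehicle against normal diet (SE 0.31, edgeR adjusted p = 0.00380, called in 20 of 20 alternatives). It fell by 1.54 in high fat B-LGND2 against normal diet (edgeR adjusted p = 0.0151, lost without replicate 1 or 2 of high fat B-LGND2, adjusted p = 0.0760 and 0.0518). Without replicate 3 of the normal diet these values were -1.61 and -1.04.

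For the adhesion step, 5 of 9 integrin genes that pair with Icam1 or Vcam1 were tested. Itgal, the alpha chain of the lymphocyte integrin that binds Icam1, had 126, 113 and 129 counts in the high fat B-LGND2 libraries, 42, 48 and 57 in the high fat vehicle libraries and 77, 20 and 52 in the normal diet libraries. It rose by 1.25 on the log2 scale in high fat B-LGND2 against high fat vehicle (SE 0.35, edgeR adjusted p = 0.0489), the 1 call of this list. Only 9 of 20 alternatives kept it, and leaving out any 1 of the 6 libraries compared lost it (the highest adjusted p was 0.164). Itgb1 and Itga9, the list genes with the most CPM, were called in no comparison. Itgb7 did not pass the filter, with 49, 9 and 9 counts in the high fat B-LGND2 libraries, 5, 4 and 4 in the high fat vehicle libraries and 2, 4 and 9 in the normal diet libraries. With no filter edgeR called it higher in high fat B-LGND2 against high fat vehicle (log2 fold change 2.09, adjusted p = 0.0279) but not against normal diet (adjusted p = 0.0729). Of 17 other adhesion molecules, 11 were tested, and edgeR called none for high fat B-LGND2 against high fat vehicle or for high fat vehicle against normal diet. An unadjusted p under 0.05 was reached by 4 of 11 and 0 of 11, where 23.7% and 22.4% of all genes reached it. DESeq2 called 1 in the first of these comparisons, Cdh5, and edgeR with only the 2 groups in the model called 2, Cdh5 and Icam4. In high fat B-LGND2 against normal diet, Selplg, the ligand of P-selectin, and Cdh5, the cadherin of endothelial junctions, rose by 1.65 and 1.02 on the log2 scale (edgeR adjusted p = 0.0250 and 0.0288), and 14 of 19 and 14 of 20 alternatives kept these calls. Both were lost without replicate 2 or 3 of the normal diet or replicate 1 or 3 of high fat B-LGND2, and Cdh5 also without replicate 2 of high fat B-LGND2 (the highest adjusted p was 0.0853 for Selplg and 0.102 for Cdh5). Alcam, second in CPM to Cdh5, was called in no comparison.

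Among 26 other cytokines, 9 were tested, with list medians of 0.66 for high fat B-LGND2 against high fat vehicle and -0.70 for high fat vehicle against normal diet, and no call by edgeR in either. In each, 4 of 9 had an unadjusted p under 0.05, where 23.7% and 22.4% of all genes did. Tgfb1, a cytokine of fibrosis and immune restraint, rose by 1.36 on the log2 scale in high fat B-LGND2 against normal diet (SE 0.31, edgeR adjusted p = 0.0292), at 9.85 ± 1.68 CPM against 3.84 ± 0.788 CPM (SD, n = 3 each). Of 20 alternatives 14 kept the call, which was lost without replicate 2 or 3 of the normal diet, replicate 3 of high fat vehicle or replicate 1 or 3 of high fat B-LGND2 (the highest adjusted p was 0.126). Csf1, the growth factor of macrophages, had 161, 454 and 142 counts in the high fat B-LGND2 libraries, 99, 95 and 109 in the high fat vehicle libraries and 126, 77 and 52 in the normal diet libraries, and replicate 2 of high fat B-LGND2 stood far above the rest. It was not called by edgeR (adjusted p = 0.0972 against high fat vehicle and 0.0874 against normal diet) but was called in both by DESeq2 and by edgeR with no filter.

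Of 21 receptors and signalling genes of the tumour necrosis factor and interleukin 1 pathways, 17 were tested. Tnfrsf1b, which encodes the second receptor of tumour necrosis factor, was the 1 called. It had 466, 352 and 357 counts in the high fat B-LGND2 libraries, 510, 465 and 498 in the high fat vehicle libraries and 187, 253 and 211 in the normal diet libraries. In high fat vehicle against normal diet it rose by 1.16 on the log2 scale (SE 0.22, edgeR adjusted p = 0.0164), and the call was lost without replicate 1, 2 or 3 of high fat vehicle (the highest adjusted p was 0.0900). Il1r1 and Il1rap, the receptor chains of interleukin 1 and the list genes with the most CPM, were not called. Il1r1 stood at 1.01 on the log2 scale in high fat vehicle against normal diet (SE 0.30, edgeR adjusted p = 0.071), with libraries that overlapped. In high fat B-LGND2 against high fat vehicle it stood at -0.80 (SE 0.30, edgeR adjusted p = 0.118), with libraries that did not overlap. Il1rap stood at -0.18 and 0.019 in these comparisons. The list medians were 0.00026 for high fat B-LGND2 against high fat vehicle and 0.15 for high fat vehicle against normal diet.

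The NF-kB list had 19 of 20 genes tested, and its medians were -0.048 for high fat B-LGND2 against high fat vehicle, 0.25 for high fat B-LGND2 against normal diet and 0.17 for high fat vehicle against normal diet. Nfkbiz, an inducible nuclear regulator of NF-kB target genes, had 37, 24 and 24 counts in the high fat B-LGND2 libraries, 66, 57 and 83 in the high fat vehicle libraries and 26, 16 and 28 in the normal diet libraries. As for Cxcl1, the high fat vehicle libraries of Nfkbiz were above all others. It fell by 1.39 on the log2 scale in high fat B-LGND2 against high fat vehicle (SE 0.31, edgeR adjusted p = 0.0202). It rose by 1.54 in high fat vehicle against normal diet (SE 0.31, edgeR adjusted p = 0.0220). Of 20 alternatives 16 kept each call, and both were lost when any 1 high fat vehicle library was left out. The call against high fat vehicle was also lost without replicate 1 of high fat B-LGND2 (the highest adjusted p was 0.0862), and that against normal diet without replicate 2 of the normal diet (the highest was 0.101).

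Chuk, the alpha kinase that acts on the inhibitors of NF-kB, had 181, 199 and 193 counts in the high fat B-LGND2 libraries, 337, 386 and 391 in the high fat vehicle libraries and 396, 361 and 336 in the normal diet libraries. It fell by 1.03 against each of the other groups (SE 0.23, edgeR adjusted p = 0.0193 against high fat vehicle and 0.0243 against normal diet), and 16 and 15 of 20 alternatives kept the calls. The call against high fat vehicle was lost without replicate 1, 2 or 3 of high fat vehicle or replicate 1 of high fat B-LGND2 (the highest adjusted p was 0.0919). The call against normal diet was lost without replicate 2 of the normal diet or replicate 1 or 2 of high fat B-LGND2 (the highest adjusted p was 0.0940). Rela and Ikbkg, the list genes with the most CPM, were not called. Rela averaged 124 ± 9.48 CPM with high fat B-LGND2, 79.0 ± 6.96 CPM with high fat vehicle and 78 ± 11.3 CPM on the normal diet (SD, n = 3 each). All high fat B-LGND2 libraries of Rela were above all others. Its log2 fold change was 0.65 against high fat vehicle (edgeR adjusted p = 0.068) and 0.67 against normal diet (edgeR adjusted p = 0.0843). For Ikbkg the groups overlapped.

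**Figure D4:**
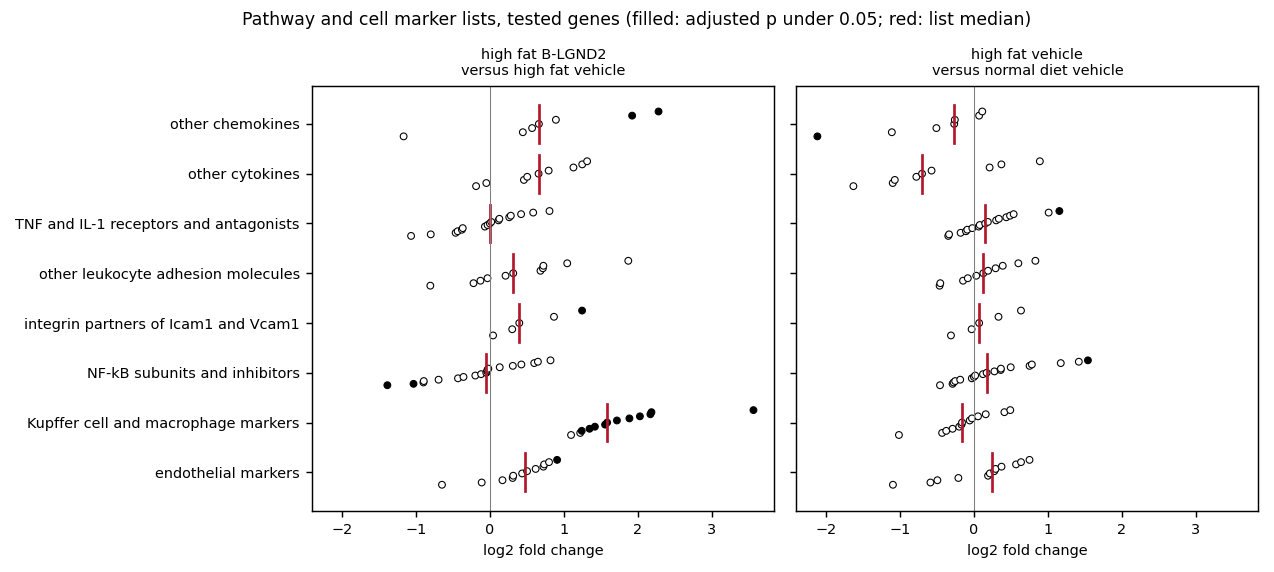
Log2 fold change (horizontal axis) of each tested gene of 6 pathway lists and of the macrophage and endothelial marker lists (rows), for high fat B-LGND2 against high fat vehicle and for high fat vehicle against normal diet vehicle; filled points have an edgeR adjusted p under 0.05 and the red line is the median of the list. The macrophage markers had 11 filled points and a median of 1.59 in the first comparison and none in the second, and the other chemokines had 2 filled points in the first.

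Markers of other cell types moved with the same groups. All 13 Kupffer cell and macrophage markers were tested, and 11 were called higher in high fat B-LGND2 against high fat vehicle and 10 against normal diet, with medians of 1.59 and 1.64. None was called for high fat vehicle against normal diet. Their summed level was 1200 to 1527 CPM in the high fat B-LGND2 libraries, 334 to 454 CPM in the high fat vehicle libraries and 356 to 608 CPM in the normal diet libraries. With 1 library left out, between 5 and 13 of them were called against high fat vehicle, the lowest counts, 5 and 6, without replicate 1 or 2 of high fat vehicle, and between 6 and 10 against normal diet. Endothelial markers, of which all 12 were tested, summed to 320 to 400 CPM in the high fat B-LGND2 libraries, 226 to 286 CPM in the high fat vehicle libraries and 236 to 296 CPM in the normal diet libraries. In the high fat B-LGND2 group 1 was called higher against high fat vehicle (Kdr) and 3 against normal diet (Cdh5, Stab2 and Lyve1). With 1 library left out, 0 to 3 were called in each of these comparisons, and the call against high fat vehicle was also lost without scaling and with the replicate block. The part of these shifts in the rises of Icam1, Ccl6 and Vcam1 was not tested.

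Markers of the cells that these chemokines attract were near the limit of detection. Neutrophil markers had 1 of 12 genes tested, S100a9, which was not called. They summed to 7.18 to 10.7 CPM in the high fat B-LGND2 libraries, 3.16 to 4.88 CPM in the high fat vehicle libraries and 2.495 to 11.6 CPM in the normal diet libraries. The markers Mpo, Ly6g and Ltf had 0 counts in all 9 libraries. T and NK cell markers had 2 of 14 genes tested, neither called, and summed to 9.39 to 11.5 CPM in the high fat B-LGND2 libraries, 5.72 to 7.52 CPM in the high fat vehicle libraries and 3.97 to 7.05 CPM in the normal diet libraries. Monocyte markers had 1 of 7 tested, Fn1, which hepatocytes also express, and Chil3 was at 0 counts in all libraries. Fn1 was not called by edgeR (adjusted p = 0.0539 for high fat vehicle against normal diet), but was called higher there by DESeq2, without scaling, with no filter and with the filter of 50 counts, as well as without replicate 1 of the normal diet. By the main edgeR test none of the 10 stellate cell markers, the 3 tested of 7 cholangiocyte markers or the 1 tested of 8 B cell markers was called in any comparison. Of the stellate cell markers, 4 had an unadjusted p under 0.05 in high fat B-LGND2 against high fat vehicle and 5 against normal diet, where 23.7% and 19.4% of all genes did. DESeq2 called 1 (Colec11) and 2 (Colec11 and Col1a2). Other edgeR settings called Colec11, Dcn, Col1a2, Pdgfrb or the cholangiocyte marker Sox9 in some comparisons. The B cell marker Cd79b, under the filter, had 26, 13 and 8 counts with high fat B-LGND2, 4, 0 and 4 with high fat vehicle and 8, 8 and 11 on the normal diet. With no filter edgeR called it higher in high fat B-LGND2 against high fat vehicle (adjusted p = 0.0313), not against normal diet. Of the 10 hepatocyte markers, 1 was called higher in high fat vehicle against normal diet (Tat) and 1 in high fat B-LGND2 against high fat vehicle (Apoa1). The Tat call was lost without replicate 1 of high fat vehicle. Apoa1 had 500854, 161746 and 120400 counts in the high fat B-LGND2 libraries, highest in replicate 1. Its call was lost without that library, without any 1 of the high fat vehicle libraries and with the replicate block. In the same comparison DESeq2 and edgeR with no filter also called Serpina1c higher and Tat lower. Serpina1c was also called by voom, with only the 2 groups in the model and without ribosomal RNA and mitochondrial genes.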

How the data were processed

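Poly(A)-enriched liver RNA was sequenced as barcoded Ion Torrent libraries, per the labels' protocols. The authors deposited unnormalized whole-number read counts of every gene for 9 libraries. Per the submitters' processing notes, the build was GRCm38.p3, the aligners listed are Bowtie2 2.2.4 and TopHat2 2.0.13, and the other tools are HTSeq 0.6.1p1, SAMtools 0.1.19 and DESeq2 1.6.3. No source used here gives the annotation release or strand setting. Symbols and GRCm38 gene spans came from GENCODE, matched by gene ID (44585 of 45513 IDs had a symbol).

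Counts were analysed in R 4.3.3. Genes were filtered by edgeR 4.0.16 (filterByExpr, minimum count 10) and library sizes were scaled by the trimmed mean of M-values. A robust quasi-likelihood model of the 3 groups was then fitted to all libraries at once (6 residual degrees of freedom). The 3 contrasts, each two-sided, were adjusted by Benjamini-Hochberg over 12102 genes, with a threshold of 0.05. An exact permutation test of 3 against 3 libraries cannot go below 0.1, so none was run. The model was tested on simulated counts with 200 changed genes: in the comparison of high fat B-LGND2 with high fat vehicle, 26% of changes of 1 and 86% of changes of 2 on the log2 scale were recovered, with 8 false calls among 11902 genes. No 2 libraries agreed within sampling noise (chi-square over degrees of freedom at least 11.8). Log2 CPM for z scores used a prior count of 2.

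The members, the 18 gene lists and the tests were chosen with earlier results of these data known. Named were all members, the called genes of each pathway list (at most 4 per comparison) with its 2 genes of highest level, and the 3 genes most like each tested member with a mean of at least 10 counts. The results of some genes and of 2 of the lists are not reported here. Other marker genes were named after their values were seen. Alternatives changed the scaling, filter (none, or 50 counts in 3 libraries), test (DESeq2 1.42.0, or voom of limma 3.58.1), dispersion, groups in the model, replicate block, a length and GC offset, ribosomal and mitochondrial genes, and each library in turn. Counts without molecular identifiers are not molecules.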

Additional observations from a re-analysis of the deposited data

How the results depend on the processing

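Of 409 alternative values for the 21 member fold changes, 371 kept their direction and side of the threshold, 21 lost a call, 12 gained one and 5 turned in direction, each by leaving out 1 library. With 1 library left out, Cxcl9 ranged from -0.062 to 1.77 and Cxcl10 from -0.41 to 0.76 for high fat B-LGND2 against high fat vehicle, and Cxcl9 from -0.77 to 1.04 against normal diet, with the lowest values without replicate 3 of high fat B-LGND2. Cxcl1 ranged from -1.56 to 0.033 for high fat B-LGND2 against normal diet, the highest without its replicate 1. Ccl6 ranged from -0.84 to 0.22 for high fat vehicle against normal diet, the highest without replicate 3 of the normal diet. Members called numbered 3 for high fat B-LGND2 against high fat vehicle (0 to 4 with 1 library left out). They numbered 1 for high fat B-LGND2 against normal diet (0 to 2), with 0 without scaling, 0 with only the 2 groups and 2 with the length and GC offset. They numbered 0 for high fat vehicle against normal diet (0 to 1), with 1 under no filter, 1 under DESeq2 and 1 under the offset. Genes called in these comparisons numbered 681, 354 and 362. They numbered 1345, 751 and 1182 with no filter, 1123, 660 and 984 with DESeq2, and 1420, 144 and 153 with only the 2 groups. With 1 library left out they numbered 100 to 1439, 111 to 639 and 35 to 1860. The cause of these shifts was not tested. With the replicate number as a block, 492, 253 and 203 genes and 3, 1 and 0 members were called. Same-numbered libraries correlated at -0.19 to 0.12, with 1 of 9 pairs over 0.1 and 3 of 9 libraries closest to their own number, so the numbers were not taken as pairs. Without scaling, the median of all genes was -0.18 for high fat B-LGND2 against high fat vehicle, and 31.1% of calls were higher, against 54.5% with scaling. For high fat vehicle against normal diet that median was 0.17, and 72.6% of calls were higher without scaling and 60.7% with voom, against 50.3%. The alternatives for single genes of the pathway lists were added after the data were seen. Depth limited Ccl2, Ccl5 and Tnf, which did not pass the filter and were not called without it.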

Other observations

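Several relatives of the members were as sparse as Ccl2 and Tnf and did not pass the filter. Of the 31 other chemokines, 8 had 0 counts in all 9 libraries, among them Cxcl5, Ccl20 and Ccl21a, and of the 26 other cytokines 7 did, among them Il6 and Il17a. Cxcl2, which shares the receptor Cxcr2 with Cxcl1, had 0, 3 and 1 counts in the high fat B-LGND2 libraries, 4, 1 and 2 in the high fat vehicle libraries and 2, 0 and 3 in the normal diet libraries. Cxcl13, the chemokine of B cells, did not pass the filter but had 7, 53 and 30 counts in the high fat B-LGND2 libraries, against 3, 2 and 0 in the high fat vehicle libraries and 3, 0 and 3 in the normal diet libraries. With no filter on low counts, edgeR called it higher in high fat B-LGND2 against high fat vehicle (log2 fold change 4.04, SE 0.72, adjusted p = 4.44e-06) and against normal diet (3.81, SE 0.70, adjusted p = 1.45e-05), higher in 3 of 3 libraries in each. It was singled out after its values were seen. The libraries of high fat B-LGND2 differed widely, with replicate 1 far below the others. Cxcr3, the receptor of Cxcl9 and Cxcl10, had 4, 9 and 11 counts in the high fat B-LGND2 libraries, 8, 3 and 4 in the high fat vehicle libraries and 10, 2 and 2 in the normal diet libraries, which overlapped.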
